A study of Mus musculus with 146 samples.

Results

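Aoah-high cultures were the 36 bone marrow-derived macrophage libraries with the most RNA of Aoah and Aoah-low cultures the 36 with the least, out of 146 libraries in all, and they were chosen by script. For each library the count of Aoah was divided by the column sum of the library and scaled to 1000000 counts (counts per 1000000, CPM), log2(CPM + 1) was taken, and the mean of the library's plate was subtracted. Both classes came from outbred Crl:CFW(SW)-US_P08 (CFW) mice of 16 weeks, with 1 library per mouse, and all cultures were grown for 5 days in 25% L929-conditioned medium and left untreated. The 36 Aoah-high libraries were from 21 female and 15 male mice, and the 36 Aoah-low libraries from 24 female and 12 male mice, by label. No genotype or treatment separates the classes in the labels, and the mice's genotypes were not analysed here. Since the classes were cut from the measured level of Aoah, the level of Aoah itself is given as a description, with no test.

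Aoah encodes acyloxyacyl hydrolase, a lipase made by macrophages, dendritic cells, microglia and NK cells. It removes the secondary acyl chains from the lipid A of bacterial lipopolysaccharide (LPS), and LPS trimmed in this way no longer activates the receptor complex of Tlr4 and Ly96 (MD-2). Mice that lack the enzyme clear LPS activity slowly and stay tolerant to it for long after an exposure. In the mouse the gene lies in a stretch of chromosome 13 between Elmo1, whose product guides engulfment and cell migration with Dock proteins, and a cluster of genes for zinc finger proteins with SCAN and KRAB domains. SCAN domains let such proteins pair with each other, and KRAB domains of many zinc finger proteins recruit the corepressor Trim28 to DNA.

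The 3 genes on which the results turn most are Aoah itself, Zscan12 and Zscan26, and the 250 bases before the start of each are shown so that the level of a gene can be read beside the DNA just before it. Aoah (ENSMUSG00000021322) spans chr13:20794113-21036617 on the plus strand of GRCm38 in GENCODE M21, Zscan12 (ENSMUSG00000036721) chr13:21362820-21372289 on the plus strand, and Zscan26 (ENSMUSG00000022228) chr13:21442180-21453730 on the minus strand. The sequences come from RefSeq on GRCm38.p6, are written in the direction of transcription, and end at the base before RefSeq's start of the gene. Their coordinates are chr13:20793863-20794112 for Aoah, chr13:21362570-21362819 for Zscan12 and chr13:21453728-21453977 for Zscan26.
Aoah: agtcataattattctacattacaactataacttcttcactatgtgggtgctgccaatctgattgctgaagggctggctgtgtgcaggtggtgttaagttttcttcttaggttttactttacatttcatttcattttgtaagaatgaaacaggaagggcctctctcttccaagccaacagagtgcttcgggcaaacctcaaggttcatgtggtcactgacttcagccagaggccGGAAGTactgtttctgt
Zscan12: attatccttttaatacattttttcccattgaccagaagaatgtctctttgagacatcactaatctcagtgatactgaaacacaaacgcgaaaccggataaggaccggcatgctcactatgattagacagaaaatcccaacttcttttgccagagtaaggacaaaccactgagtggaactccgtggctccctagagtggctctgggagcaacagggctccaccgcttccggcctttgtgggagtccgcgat
Zscan26: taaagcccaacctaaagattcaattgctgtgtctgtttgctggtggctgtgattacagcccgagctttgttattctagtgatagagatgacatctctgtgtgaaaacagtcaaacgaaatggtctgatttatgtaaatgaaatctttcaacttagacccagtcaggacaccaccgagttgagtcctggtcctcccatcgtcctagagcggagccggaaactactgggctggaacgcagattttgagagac
The capitals mark GGAAGT, a form of the ETS motif, searched on both strands together with the GC box GGGCGG. Neither motif overlaps the other in these windows. Other forms of the ETS motif were not searched, so a window without GGAAGT may still hold an ETS site. GGAAGT occurs 1 time in the window of Aoah and in neither of the other two, and GGGCGG occurs in none of the 3. Of 32851 RefSeq windows of the same length, 19.7% hold GGAAGT and 32.7% hold GGGCGG on either strand. The GC share is 42.8% for Aoah, 47.2% for Zscan12 and 45.6% for Zscan26, against a median of 52.4% over all windows.

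Aoah fell in separate levels. In 58 of the 146 libraries it had between 93.8 and 275 CPM (median 128), and in the other 88 between 15.2 and 32.2 CPM (median 22.9). No library lay between 32.2 and 93.8 CPM, a 2.91-fold gap of 1.51 on the log2 scale, whereas the next widest gap between neighbouring libraries was 0.21. Above the gap the level averaged 138 ± 36.6 CPM (SD, n = 58) and below it 23.1 ± 3.72 CPM (SD, n = 88). The side of the gap accounted for 95.5% of the variance of log2(CPM + 1) of Aoah, but it was cut from these same levels. Of the labels, each taken alone, the collection date accounted for 23.2%, the plate for 3.76% and labelled sex for 0.764%. The 28 date labels over 146 libraries raise the share of the date by their number alone, to an extent that was not tested.

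After the plate means were subtracted the gap was 1.15 wide on the log2 scale, from -0.28 to 0.87, and it put all 146 libraries on the same side as before. The deposited variance-stabilised values gave a gap of 1.44, or 1.09 after plate centring, and again the same 58 and 88 libraries. Centring on the 28 collection date labels instead left no such gap, the widest being 0.25. A date's mean depends on how many of its libraries lie above the gap, so this centring shifts the levels between dates. Of those dates 22 held libraries of both sides, 5 held 14 libraries that were all below the gap, and 1 held 2 libraries that were both above it. By the Bayesian information criterion (lower is better), plate-centred levels were described best by 2 normal distributions (307, against 485 for 1 and 317 for 3), and uncentred levels by 3 (234, against 240 for 2). The third component of the uncentred fit held a share of 0.0547 of the libraries around a log2(CPM + 1) of 7.73, near that of the 5 libraries over 200 CPM, of which the lowest had 217 CPM.

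Both sides of the gap occurred on every plate. The share of libraries above the gap was 39.7% in all, and by plate it lay between 25% on plate 4 and 52.2% on plate 7. Of 86 mice labelled female 33 were above the gap (38.4%), and of 60 labelled male 25 (41.7%), which did not pass a two-sided Fisher's exact test (p = 0.733).

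**Figure D1:**
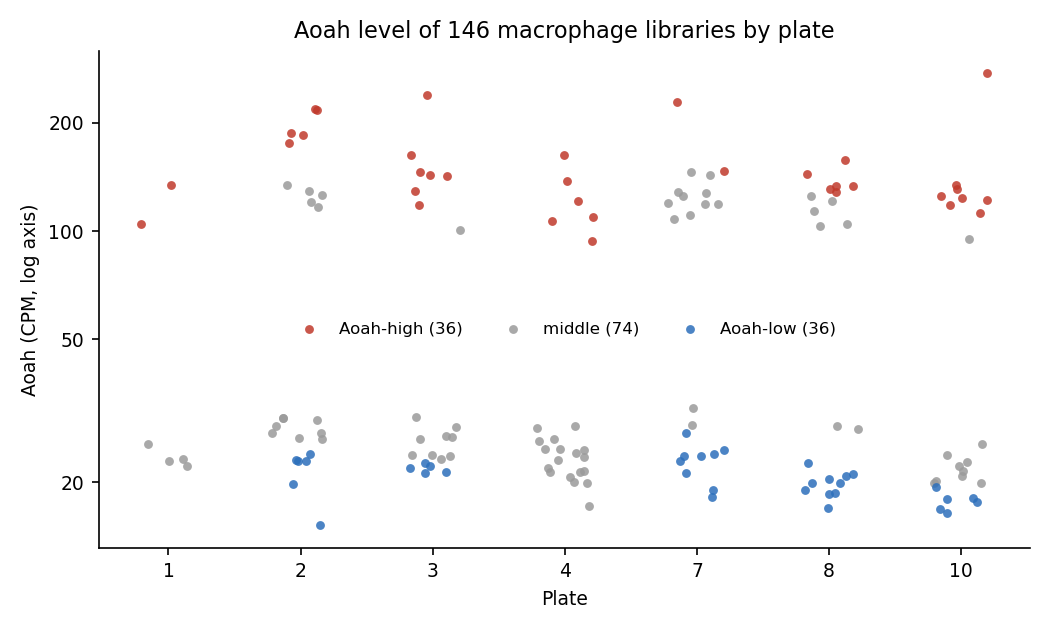
Aoah in CPM on a log axis for each of the 146 libraries, by plate, with the 36 Aoah-high libraries in red, the 74 in neither class in grey and the 36 Aoah-low libraries in blue. All libraries lie either between 93.8 and 275 CPM or between 15.2 and 32.2 CPM, on each of the 7 plates.

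The rule took its classes from the outer parts of the plate-centred levels, which are not the outer parts in CPM. Libraries in neither class ran from 17.2 to 146 CPM and so overlapped both classes in CPM. On plate 4 all 6 libraries above the gap were Aoah-high, against 2 of 12 on plate 7. All 36 Aoah-high libraries lay above the gap, with 93.8, 134 and 275 CPM as lowest, median and highest value, against 15.2, 20.9 and 27.4 CPM in the 36 Aoah-low libraries, which all lay below it. The means were 149 ± 41.7 CPM in Aoah-high libraries and 20.7 ± 2.72 CPM in Aoah-low libraries (SD, n = 36 each), from a median of 6420.5 and 971.5 counts. The 74 libraries left in the middle were 22 from above and 52 from below the gap, so neither class is a whole level. At the edges of the rule, the last Aoah-high library stood at 1.31067 and the first one outside the class at 1.31047 after centring, and the last Aoah-low library at -1.01559 and the first one outside at -1.00975. Within the 5 plates with both classes, the log2(CPM + 1) of Aoah differed by 2.73 to 3.16 between their means. Plates 1 and 4 gave 2 and 6 Aoah-high libraries and 0 Aoah-low libraries, so with plate as a covariate they add nothing to the fitted difference. Their libraries do enter the means, ranges and counts of overlap in CPM, which are not adjusted for plate.

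Depth ran from 29.0 to 102 M counts in Aoah-high libraries (median 40.9 M, with M for 1000000) and from 14.5 to 120 M counts in Aoah-low libraries (median 43.9 M), and the two-sided permutation p for the mean log2 depth was 0.981. Labelled sex did not pass Fisher's exact test between the classes (p = 0.627). Counts of 4 Y-linked genes went against the labelled sex in 6 libraries, all of them in the classes. Leaving those 6 out gave the same 4 called genes described next. Defining genes of macrophages were abundant in both classes: Adgre1, which encodes F4/80, averaged 627 ± 84.2 CPM in Aoah-high libraries and 600 ± 63.2 CPM in Aoah-low libraries, and Csf1r, the receptor that L929-conditioned medium stimulates, 1737 ± 168 and 1694 ± 147 CPM in the same order (SD, n = 36 each).

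Across the genome, 4 of 11905 genes differed between Aoah-high and Aoah-low libraries by edgeR's quasi-likelihood test at a Benjamini-Hochberg adjusted p under 0.05, which is 0.0336% of the genes tested. Zscan12 was higher in Aoah-high libraries (1 gene, 0.0084%), and Zscan26, Zkscan4 and Pgbd1 were lower (3 genes, 0.0252%). All 4 lie in 1 stretch of chromosome 13, starting 326 to 442 kb after the end of Aoah. DESeq2 and limma voom called the same 4 genes. Without adjustment 803 genes had p under 0.05 (6.75%), 347 of them higher (2.91%) and 456 lower (3.83%) in Aoah-high libraries. In bulk libraries of this kind a difference in RNA per cell cannot be told apart from a difference in the share of cells that hold it.

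Zscan12, a SCAN domain zinc finger protein, had 9.03, 11.4 and 15.4 CPM as lowest, median and highest value in Aoah-high libraries, against 4.93, 7.38 and 11.4 CPM in Aoah-low libraries. It averaged 11.6 ± 1.43 CPM in Aoah-high and 7.86 ± 1.498 CPM in Aoah-low libraries (SD, n = 36 each). The ranges overlapped, with 19 Aoah-high libraries above the highest Aoah-low library and 28 Aoah-low libraries below the lowest Aoah-high library. All 36 Aoah-high libraries were above the Aoah-low median. The log2 difference was 0.57 ± 0.054 (SE, 95% interval 0.47 to 0.68), with an adjusted p of 6.38e-12 by edgeR's quasi-likelihood test. Aoah-high libraries were higher in 5 of 5 plates, by 0.36 to 0.73 in mean log2(CPM + 1).

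Zscan26, a further SCAN domain zinc finger protein encoded on the other strand, was lower in Aoah-high libraries, at 25.2, 44.1 and 53.02 CPM as lowest, median and highest value, against 38.2, 54.7 and 64.8 CPM in Aoah-low libraries. Its means were 43.3 ± 6.45 CPM in Aoah-high and 53.8 ± 6.16 CPM in Aoah-low libraries (SD, n = 36 each). The ranges overlapped, yet all 36 Aoah-high libraries were below the Aoah-low median and 21 Aoah-low libraries were above the highest Aoah-high one. The log2 difference was -0.35 ± 0.050 (SE, 95% interval -0.45 to -0.25), with an adjusted p of 6.82e-06 by edgeR, and Aoah-high libraries were lower in 5 of 5 plates. Of its transcripts' 50-base stretches, searched on both strands, 22.5% also occur in another annotated gene, and 4930470G03Rik holds the most of them. The library kit does not mark strand, so the counts of Zscan26 may include or lack reads of that gene.

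Zkscan4, a zinc finger protein with KRAB and SCAN domains, had 0.586, 1.503 and 2.496 CPM as lowest, median and highest value in Aoah-high libraries and 1.01, 2.18 and 3.57 CPM in Aoah-low libraries. Of the 36 Aoah-high libraries 35 were below the Aoah-low median. The log2 difference was -0.64 ± 0.12 (SE), with an adjusted p of 0.00252 by edgeR, and it was negative in 5 of 5 plates. About as large a share of its 50-base stretches (19.95%) is shared, with the neighbouring Zkscan3 among others, and its counts are uncertain to that extent. The adjusted p was 0.0951 without the 5 libraries over 200 CPM of Aoah, 0.126 without plate 2 and 0.638 for 24 libraries against 24, and over 23 alternative fits of the classes it ran from 3.70e-05 to 0.638, under 0.05 in 20.

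Pgbd1, which derives from a piggyBac transposase and also has a SCAN domain, was the weakest in reads of the 4, with a median of 6 counts in Aoah-high libraries and 14 counts in Aoah-low libraries. Its lowest, median and highest values were 0, 0.153 and 0.410 CPM in Aoah-high libraries, against 0.084, 0.306 and 0.767 CPM in Aoah-low libraries. The log2 difference was -1.13 ± 0.22 (SE), with an adjusted p of 0.00548 by edgeR, negative in 5 of 5 plates. Of its 50-base stretches 6.58% also occur in 4930470G03Rik, which shares stretches with Zscan26 too. Reads of that gene may thus be included in or missing from the counts of both Pgbd1 and Zscan26. Its adjusted p was 0.0951 without the 5 libraries over 200 CPM, 0.0690 with collection date in place of plate, 0.169 without plate 2, 0.0834 without plate 7, 0.0831 without plate 8 and 0.552 for 24 libraries against 24. Over the same 23 alternative fits its adjusted p ran from 0.000214 to 0.552, under 0.05 in 17, whereas Zscan12 and Zscan26 were called in all 23.

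**Figure D2:**
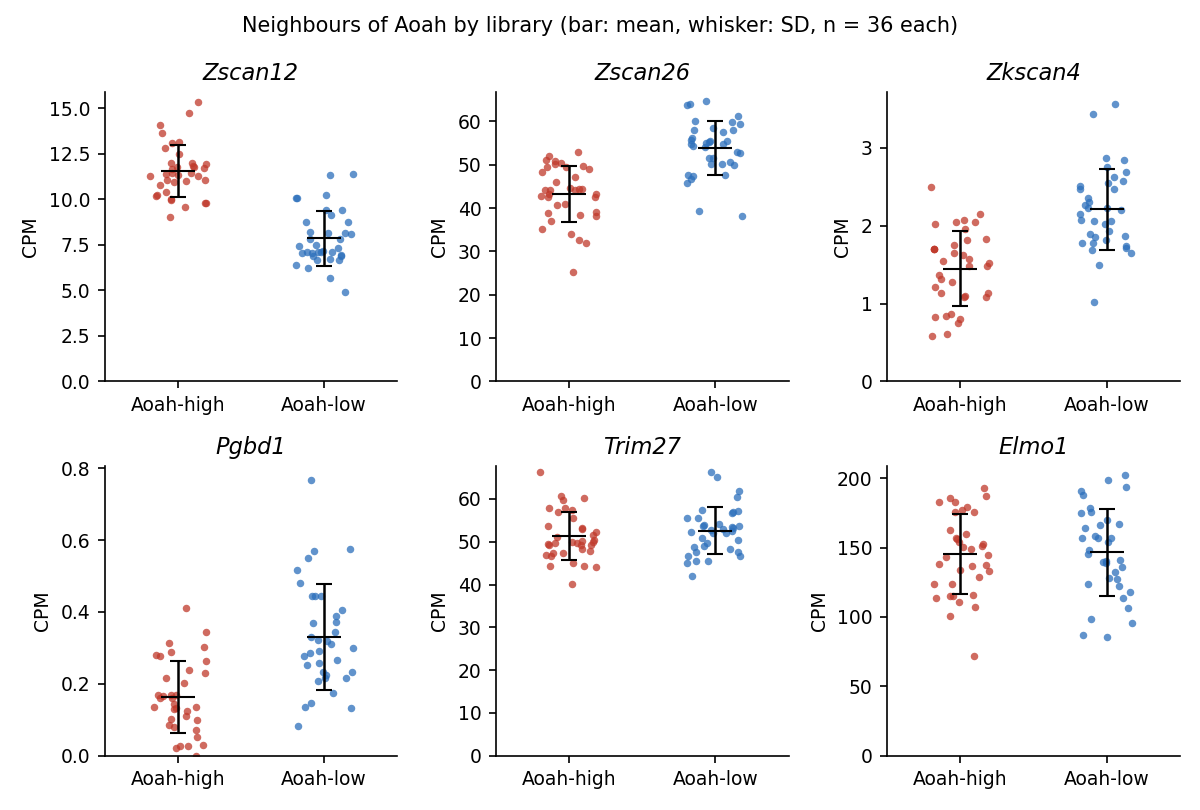
CPM of the 4 called neighbours and of Trim27 and Elmo1, the nearest tested genes on either side of Aoah, in the 36 Aoah-high (left) and 36 Aoah-low libraries (right), with a point per library, a bar at the mean and whiskers of 1 SD. Zscan12 is higher in Aoah-high libraries (11.6 against 7.86 CPM) and Zscan26, Zkscan4 and Pgbd1 are lower, while the values of Trim27 and Elmo1 spread over nearly the same range in both classes.

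Most genes around these 4 did not pass the threshold. Within 2 Mb of Aoah the count table held 78 genes, of which 18 were tested and 60 were too low, 36 of them with no count in the 72 libraries. Among the 18 tested genes 4 were called (22.2%), beside 0 of 437 on the rest of chromosome 13 and 0 of 11450 on other chromosomes. By edgeR, unadjusted p under 0.05 was reached by 6 of the 18 tested genes within 2 Mb (33.3%). It was reached by 25 genes on the rest of chromosome 13 (5.72%) and by 772 on other chromosomes (6.74%). All 4 called genes stood after the end of Aoah, 4 of 12 tested genes, against 0 of 6 before its start, where none had an unadjusted p under 0.05. Windows of 1, 5 and 10 Mb held the same 4 among 13, 42 and 65 tested genes.

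Elmo1 ends 186 kb before Aoah, is the nearest tested gene on that side, and had a log2 difference of -0.02 (95% interval -0.15 to 0.11, adjusted p = 0.965 by edgeR). It averaged 145 ± 28.7 CPM in Aoah-high and 147 ± 31.4 CPM in Aoah-low libraries (SD, n = 36 each). Farther before Aoah, the orphan receptor gene Gpr141 was at -0.08, its paralogue Gpr141b at -0.51 ± 0.28 (SE) and the ependymin-related Epdr1 at 0.40 ± 0.22 (SE), none past the threshold. The mean log2(CPM + 1) of Epdr1 was higher above the gap than below it on every plate, by 0.13 to 1.37. Between the classes it stood at -0.11 on plate 8, and no alternative fit called Epdr1. Stard3nl, a late endosome protein, and Vps41, a subunit of the HOPS tethering complex, stood at 0.06 and 0.00.

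Trim27, a RING finger ubiquitin ligase that starts 143 kb after Aoah, is nearer to it than Zscan12. It averaged 51.3 ± 5.56 CPM in Aoah-high and 52.6 ± 5.48 CPM in Aoah-low libraries (SD, n = 36 each), a log2 difference of -0.08 (95% interval -0.15 to -0.02) with an unadjusted p of 0.0186 and an adjusted p of 0.714 by edgeR. Zkscan3, a KRAB and SCAN zinc finger repressor that lies between Zscan12 and Pgbd1, stood at -0.09 (95% interval -0.19 to 0.00, adjusted p = 0.737 by edgeR). Nkapl, a gene known for its part in spermatogenesis that lies between Zscan26 and Zkscan4, stood at 0.29 ± 0.18 (SE). Zkscan8, the next zinc finger gene after Zkscan4, was at -0.21 (95% interval -0.35 to -0.07, adjusted p = 0.598 by edgeR), and at a median of 26.4 CPM in Aoah-high and 28.2 CPM in Aoah-low libraries. Farther on, the thymic protease gene Prss16 stood at 0.00 and the histone gene Hist1h4i at -0.13. The last of these, together with Gm11273 (-0.08) and AK157302 (0.03), shares 29.4% to 65.1% of its 50-base stretches with other genes, so their counts are uncertain.

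**Figure D3:**
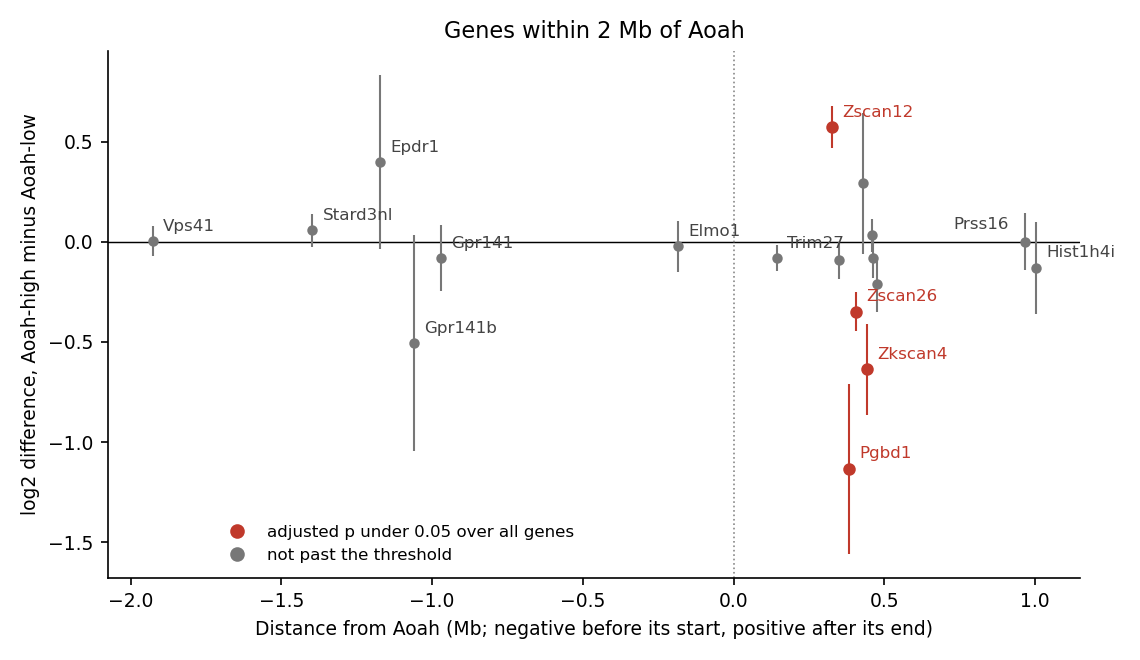
The log2 difference of Aoah-high minus Aoah-low libraries for the 18 tested genes within 2 Mb, with its 95% interval, against the distance from Aoah in Mb. The 4 called genes (red) start 326 to 442 kb after Aoah, among genes that did not pass the threshold (grey), and Zscan12 lies on the other side of 0 from Zscan26, Zkscan4 and Pgbd1.

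The 74 libraries in neither class were then tested on their own. Their Aoah levels entered the plate means and the ranking by which the classes were chosen, but their counts of other genes entered the rule only through the column sums and did not enter the comparison of the classes. A limma fit of each gene on the plate-centred Aoah level, with plate as covariate, called 3 of 11566 genes over these 74 libraries (0.0259%), with 1843 at an unadjusted p under 0.05 (15.9%). Zscan26 fell by 0.157 ± 0.025 on the log2 scale per unit of log2 Aoah (SE, adjusted p = 0.000332) and Zscan12 was higher by 0.194 ± 0.038 (SE, adjusted p = 0.0120). The third was Lzic, a gene on chromosome 4, with a slope of 0.163 ± 0.032 (SE, adjusted p = 0.0120). Zkscan4 had a slope of -0.25 ± 0.059 (SE) and an adjusted p of 0.242 in this fit, and Pgbd1 was too low to be fitted.

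Split at the gap, the 22 middle libraries above it had 9.23, 10.3 and 11.9 CPM of Zscan12 as lowest, median and highest value, against 5.45, 7.17 and 11.1 CPM in the 52 below it. For Zscan26 the same 22 libraries had 34.7, 43.6 and 59.9 CPM, against 45.9, 57.1 and 70.02 CPM in the 52. By edgeR the log2 differences were 0.41 ± 0.078 (SE, adjusted p = 0.00997) and -0.33 ± 0.052 (SE, adjusted p = 0.000177), with 3 of 12191 genes called (0.0246%), the same 3 as by slope. Zkscan4 (-0.56, adjusted p = 0.0685) and Pgbd1 (-0.69, adjusted p = 0.286) had differences of the same sign in this edgeR fit that did not pass. This split was chosen after the gap had been seen. The planned split of the 74 libraries into their upper and lower 37 runs through the level below the gap, and edgeR called 0 genes in it (1448 at an unadjusted p under 0.05, no other tool run), with 0.21 for Zscan12 and -0.19 for Zscan26.

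When all 58 libraries above the gap were set against all 88 below it, edgeR called 6 of 12070 genes (0.0497%). These were Zscan12 (0.52), Zscan26 (-0.33), Zkscan4 (-0.58), Pgbd1 (-0.97), Zkscan8 (-0.20, adjusted p = 0.0226) and Lzic (0.17, adjusted p = 0.00745), as log2 differences. With collection date in place of plate, 5 genes were called (0.0414%): the first 4 of these and Syne3, a nuclear envelope gene, while Zkscan8 (-0.16, adjusted p = 0.346) and Lzic (0.15, adjusted p = 0.156) did not pass edgeR's test. This comparison holds the 72 libraries of the classes too. Zscan12 averaged 11.1 ± 1.33 CPM above the gap (SD, n = 58) and 7.75 ± 1.46 CPM below it (SD, n = 88), and on the 7 plates the difference in mean log2(CPM + 1) was 0.33 to 0.67. Zscan26 averaged 44.1 ± 6.25 CPM above and 55.7 ± 5.76 CPM below the gap, and was lower above it on all 7 plates, by -0.46 to -0.22. Zkscan8 did not keep its sign: the same difference was 0.14 on plate 8 and -0.50 to -0.12 on the other plates.

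Neither Zscan12 nor Zscan26 showed separate levels of its own: over the 146 libraries their widest gaps in log2(CPM + 1) were 0.12 and 0.33, against 1.51 for Aoah. The difference of their log2(CPM + 1) values, Zscan12 minus Zscan26, had a median of -1.81 in Aoah-high libraries (from -2.30 to -1.04) and of -2.64 in Aoah-low libraries (from -3.18 to -1.70). Of the Aoah-low libraries 32 were below the lowest Aoah-high library on this difference, and 11 Aoah-high libraries were above the highest Aoah-low one. The remaining libraries of the classes overlapped.

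The 5 libraries over 200 CPM of Aoah stood at one end of this range. Their Zscan12 was 11.8, 14.1 and 15.4 CPM as lowest, median and highest value, against a median of 10.8 CPM in the other libraries above the gap and 7.22 CPM below it. Their Zscan26 was 25.2, 34.1 and 40.7 CPM, against medians of 44.2 CPM in the other libraries above the gap and 55.8 CPM below it. Zkscan4 followed the same order in its median, with 0.752 CPM in these 5 libraries, 1.55 CPM in the others above the gap and 2.23 CPM below it. These 5 libraries were picked by their Aoah level after it had been seen, so the values are a description. Within the 58 libraries above the gap, the slope on the Aoah level was 0.29 for Zscan12 (adjusted p = 0.0391 by edgeR) and -0.23 for Zscan26 (adjusted p = 0.163). That fit called 13 of 11466 genes (0.113%), 12 of them on other chromosomes, with 1936 at an unadjusted p under 0.05 (16.9%). Within the 88 libraries below it the slopes were -0.07 and -0.03, and edgeR called 0 genes there, with 554 at an unadjusted p under 0.05 (4.79%); no other tool was run for these fits.

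**Figure D4:**
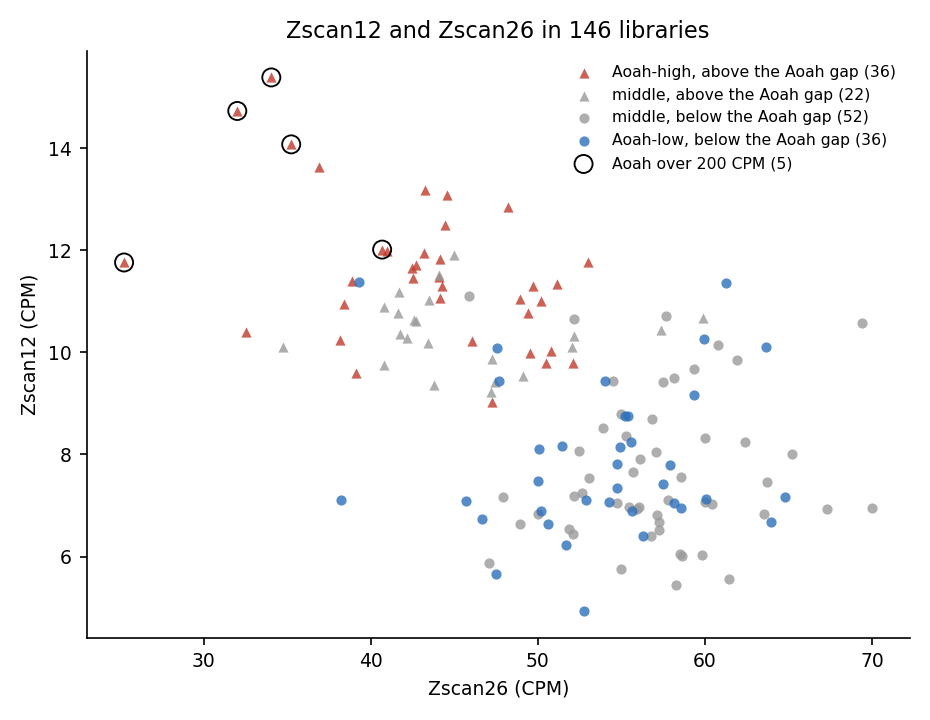
Zscan12 against Zscan26 in CPM for the 146 libraries, with triangles for libraries above and circles for libraries below the gap in Aoah, Aoah-high in red, middle in grey and Aoah-low in blue. The 5 libraries over 200 CPM of Aoah (ringed) have 25.2 to 40.7 CPM of Zscan26, and most libraries above the gap lie to the upper left of those below it.

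With Aoah left out of the tested genes, no listed gene of LPS handling passed the threshold between the classes. Of 20 listed genes of LPS recognition and signalling, all 20 were tested and 0 were called by edgeR, DESeq2 or limma voom. By edgeR 2 had an unadjusted p under 0.05. Over all genes edgeR called 0.0336%, so 0 called in a list of this size is near that share. An unadjusted p under 0.05 was reached by 6.75% of all genes, with 3.83% lower. The median log2 difference of the list was -0.01, against 0.00 over all genes tested. Tlr4, the receptor, averaged 196 ± 37.3 CPM in Aoah-high and 199 ± 41.2 CPM in Aoah-low libraries (SD, n = 36 each), a log2 difference of -0.01 (95% interval -0.15 to 0.14). Ly96, which binds lipid A for Tlr4, was at 13.2 ± 2.09 and 14.4 ± 1.85 CPM in the same order, a difference of -0.09 (95% interval -0.20 to 0.01). Cd14, which hands LPS to that complex, stood at -0.08 (95% interval -0.25 to 0.10), and the adaptor Myd88 at -0.02 (95% interval -0.06 to 0.03).

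The 2 list members with an unadjusted p under 0.05 were Lbp and Ticam1, both at lower values in Aoah-high libraries. Lbp, the LPS-binding protein, had 0.041, 1.41 and 46.5 CPM as lowest, median and highest value in Aoah-high libraries, against 0.307, 1.63 and 79.2 CPM in Aoah-low libraries. Its log2 difference of -1.40 ± 0.57 (SE) had an adjusted p of 0.699 by edgeR, and the medians of the classes were close while a few libraries in each were far above them. Ticam1, the adaptor TRIF, stood at -0.12 ± 0.055 (SE), with an adjusted p of 0.729 by edgeR.

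Other lipid hydrolases did not pass the threshold either. In a list of 20 lysosomal lipid and acyl hydrolases and their activators, 0 of 20 tested genes were called, with a median log2 difference of -0.05, and 1 had an unadjusted p under 0.05. That gene, Pld4, a lysosomal exonuclease of the phospholipase D family, averaged 558 ± 105 CPM in Aoah-high and 604 ± 113 CPM in Aoah-low libraries, a difference of -0.15 with an adjusted p of 0.731 by edgeR. Psap, the precursor of the saposins, to which the small subunit of acyloxyacyl hydrolase is related, stood at -0.06 (95% interval -0.16 to 0.05), and the acid lipase Lipa at -0.04 (95% interval -0.14 to 0.06). Among 14 secreted and cytosolic phospholipases and lipases, 0 of 14 were called and 2 had an unadjusted p under 0.05, both lower, with a list median of -0.04. These were the monoacylglycerol lipase Abhd6 at -0.36 (adjusted p = 0.729 by edgeR) and the triglyceride lipase Pnpla2 at -0.10 (adjusted p = 0.729). DESeq2 and limma voom called 0 in both lists. Over all genes edgeR called 0.0336%, so 0 called in lists of this size is near that share. An unadjusted p under 0.05 was reached by 6.75% of all genes, with 3.83% lower.

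**Figure D5:**
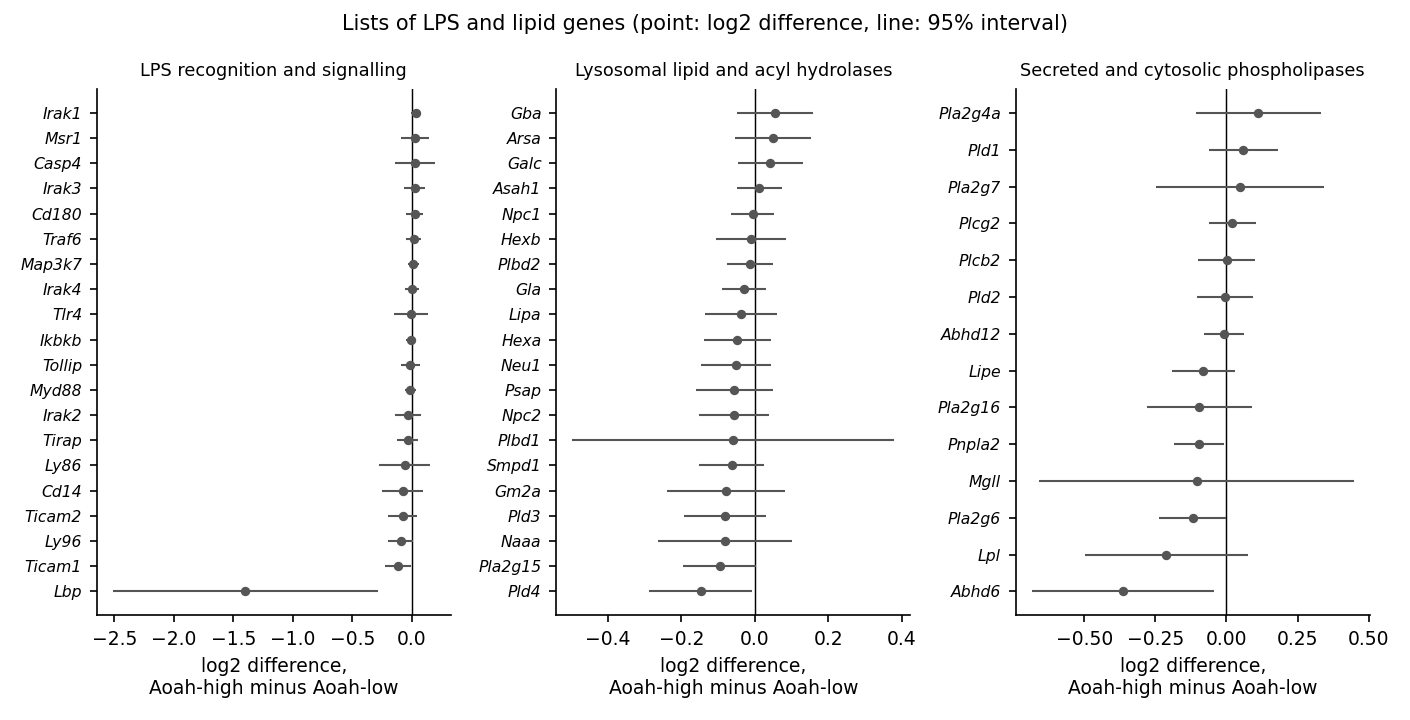
Log2 difference of Aoah-high minus Aoah-low libraries for the 20 genes of LPS recognition and signalling, 20 lysosomal lipid and acyl hydrolases and 14 secreted and cytosolic phospholipases, with 95% intervals, on axes of different width. No gene is past the adjusted threshold, and Lbp, at -1.40, has the widest interval of the first list.

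The states by which macrophage cultures commonly vary did not separate the classes past the threshold. Over 32 lists with 384 distinct tested members, edgeR, DESeq2 and limma voom called 0 genes, beside 0.0336% of all genes called by edgeR. By edgeR 20 members had an unadjusted p under 0.05 (5.21%, against 6.75% of all genes), 17 of them lower and 3 higher. Leaving out the Y-linked list, the list medians lay between -0.22 for T and NK cells and 0.10 for cholesterol biosynthesis. Of 22 macrophage identity genes 0 were called, and Irf8, a transcription factor of the monocyte and macrophage lineage, had the smallest p. It averaged 107 ± 22.2 CPM in Aoah-high and 118 ± 25.8 CPM in Aoah-low libraries, a log2 difference of -0.22 ± 0.072 (SE) with an adjusted p of 0.585 by edgeR. The 20 interferon response genes had a median of 0.09, the 10 genes of MHC class II -0.13, the 20 of mitosis -0.01 and the 20 of DNA replication 0.08, and 0 were called in each. Y-linked genes had a median of 0.66, with 15 male mice in the Aoah-high and 12 in the Aoah-low class by label, and 0 of 4 were called. The 6 libraries whose Y-linked counts went against the label were 2 labelled female and 1 labelled male in each class.

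Marker genes of other cells that a marrow culture could hold had summed levels that overlapped between the classes. The summed level of 20 genes of granulocyte precursors and neutrophils ran from 356 to 1840 CPM in Aoah-high libraries (median 828) and from 287 to 2337 CPM in Aoah-low libraries (median 760). For 16 dendritic cell genes the ranges were 85.1 to 205 CPM (median 114) in Aoah-high and 80.2 to 213 CPM (median 108) in Aoah-low libraries. The 16 genes of T and NK cells, of which 9 averaged under 0.1 CPM, summed to 1.97 to 9.35 CPM in Aoah-high and 1.47 to 10.2 CPM in Aoah-low libraries. Erythroid genes summed to at most 1.70 CPM in Aoah-high and 1.08 CPM in Aoah-low libraries, and none of the 11 was high enough to test. Dendritic cells and NK cells are known to express Aoah, and the part of other cells in its level was not tested.

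A model with a class-by-sex term, which used the labelled sex of all 72 libraries, called 0 of 11905 genes by edgeR (0%), with 658 at an unadjusted p under 0.05 (5.53%), and no other tool was run for it. The adjusted p of that term was 0.992 for Zscan12 and 0.988 for Zscan26. Above the gap, Aoah averaged 129 ± 32.2 CPM in libraries labelled female (SD, n = 33) and 150 ± 39.1 CPM in those labelled male (SD, n = 25). These means are a description. The libraries labelled female include the highest of all, at 275 CPM, whose Y-linked counts went against its label. The other libraries over 200 CPM were all labelled male. The means were not recomputed without the libraries whose Y-linked counts went against the label.

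The median 95% interval of a gene's log2 difference reached 0.0974 to each side, and 98.9% of the genes had an interval that lay within 1 of 0. A difference of 1 on the log2 scale, far below that of Aoah, lay outside the intervals of nearly all genes of this table.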

How the data were processed

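Polyadenylated RNA of 146 macrophage cultures, 1 per mouse, was sequenced from libraries made with a kit that does not mark strand. Per the submitters' processing notes, the tools were FastQC, TopHat2 2.0.11, HTSeq 0.6.1 and DESeq2 on GRCm38 (mm10), and the annotation release and counting mode are not given in the sources used here. The authors deposited raw counts for 22721 genes and log2 variance-stabilised values for 10893 genes. GENCODE M21 named 21822 of the identifiers.

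From the deposited counts, CPM by column sum gave the classes. Genes that filterByExpr kept were scaled by TMM and fitted with plate and class in edgeR 4.0.16 (R 4.3.3). Class was tested by quasi-likelihood, and p-values were adjusted by Benjamini-Hochberg over all 11905 genes. Aoah was left out of the tested genes. The slope over the middle libraries used limma 3.58.1 on log2 CPM with a trend, and other slopes edgeR. The SE of an edgeR result is the log2 difference divided by the root of its F. DESeq2 1.42.0 and limma voom were alternatives, beside other class sizes, covariates and scalings. Of these fits, only the edgeR fit of the classes with plate was also run on simulated counts. The log2 variance-stabilised values that the authors deposited served only to check the levels of Aoah.

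The members, lists and tests were chosen with earlier results of these data known. Every tested gene within 2 Mb of Aoah is named, with the genes that passed the threshold and those called by slope in the middle libraries. Ndufb2 and Zfp846, also among the smallest p by that slope, were not called and are not described. Tbc1d5 is named outside these rules. The list members with an unadjusted p under 0.05 were picked after their values were seen. Replicates were separate mice, and intervals cover the spread between cultures.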

Additional observations from a re-analysis of the deposited data

How the results depend on the processing

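The classes gave 1 gene higher and 3 lower in Aoah-high libraries, 4 of them within 2 Mb of Aoah and 0 on other chromosomes. Over 23 alternative fits of the classes Zscan12 stayed between 0.52 and 0.67 and Zscan26 between -0.42 and -0.28 on the log2 scale, and both were called in all 23. Genes higher numbered 2 with no filter, 3 and 5 with 1 and 5 principal components, 2 for 48 against 48 and 2 for the continuous level over 146 libraries. Those settings called 1, 2, 4, 1 and 1 genes on other chromosomes, and the uncentred level called 1. With 24 against 24 and without plate 2, 1 gene was lower and 2 within 2 Mb were called; without plate 10, 5 were higher, 5 lower and 6 on other chromosomes; without the 5 libraries over 200 CPM, 1 was lower and 2 within 2 Mb were called. Among the middle libraries the upper 37 against the lower 37 gave 0 higher, 0 lower and 0 within 2 Mb. The continuous level, and likewise the 22 against 52 libraries, gave 2 higher, 1 lower, 2 within 2 Mb and 1 on other chromosomes. The 58 against 88 libraries gave 2 higher and 1 on other chromosomes (Lzic) with plate, and 2 higher and 1 on other chromosomes (Syne3) with collection date; with 1 principal component they gave 2 higher, 5 lower and 2 on other chromosomes. Within the 58 libraries 8 genes were higher, 5 lower, 1 within 2 Mb and 12 on other chromosomes; within the 88 it was 0 higher, 0 lower and 0 within 2 Mb. There the slopes of Zscan12 (-0.066) and Pgbd1 (0.0126) had the other sign, with adjusted p of 1.00 by edgeR. The causes of these differences between settings were not tested. Settings that use the gap or the 200 CPM limit were added after seeing the data.

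No paired analysis was possible because the labels number no replicates and each culture came from its own mouse; plate and collection date entered as covariates instead. Genes under the count filter, 60 of the 78 within 2 Mb of Aoah among them, were not tested. Plates 1 and 4 hold no Aoah-low library. Pgbd1, at a median of 6 counts in Aoah-high libraries, is limited by depth.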

Other observations

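Lzic, a gene of chromosome 4 with a leucine zipper and a beta-catenin-binding domain, had 18.6, 25.0 and 28.9 CPM as lowest, median and highest value in the 22 middle libraries above the gap, against 14.1, 20.99 and 26.9 CPM in the 52 below it. In the classes it averaged 22.0 ± 3.42 CPM in Aoah-high and 19.8 ± 2.87 CPM in Aoah-low libraries (SD, n = 36 each), a log2 difference of 0.15 ± 0.055 (SE) with an adjusted p of 0.654 by edgeR's quasi-likelihood test. It was called in 5 of 32 alternative fits, which include the 58 against 88 libraries (0.17, adjusted p = 0.00745), and not in the same comparison with collection date in place of plate (0.15, adjusted p = 0.156) or in any of the 23 that refit the classes. Above the gap its mean log2(CPM + 1) was higher on all 7 plates.

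Tbc1d5, a chromosome 17 gene whose product regulates Rab7 and the retromer, averaged 71.6 ± 8.13 CPM in Aoah-high and 66.3 ± 7.38 CPM in Aoah-low libraries (SD, n = 36 each). Its log2 difference was 0.13 ± 0.032 (SE), with an adjusted p of 0.227 by edgeR that ran from 0.00492 to 1.00 over the 23 alternative fits of the classes and was under 0.05 in 4 of them.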
